A study of Homo sapiens with 6 samples.

Results

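The heat shock chaperones of the cytosol, nucleus and mitochondria were examined as 50 named genes among the 61541 genes of a deposited RNA sequencing count table. The genes were chosen by name, from the families of HSP70, HSP110, HSP90, small heat shock proteins, HSP60/HSP10 and the TRiC/CCT chaperonin, with their J-domain, BAG and HSP90 co-chaperones and the transcription factors HSF1 and HSF2. All 50 had a row in the table, and 44 passed the filter of a mean of at least 1 CPM (the counts-per-million scale) over the libraries. The 6 libraries were labelled as A498, a human line from a clear cell renal carcinoma, and both groups carried a short hairpin RNA (shRNA) said to be delivered by transfection or infection. The 3 shcontrol libraries carried a control shRNA, and the 3 shRNF26 libraries carried an shRNA against RNF26, an E3 ubiquitin ligase of the endoplasmic reticulum (ER) membrane. How many hairpins were used, and whether separate cultures were harvested, is not in the labels, so the p-values reflect the spread among these libraries alone, and that spread may be technical.

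Molecular chaperones bind unfolded stretches of other proteins and help them to fold, refold or reach the proteasome. HSP70 proteins work in a cycle in which J-domain proteins deliver clients and stimulate ATP hydrolysis, and BAG and HSP110 proteins act as nucleotide exchange factors that release them. Many clients then pass to HSP90, whose cycle is set by its own co-chaperones, while the TRiC/CCT ring folds actin and tubulin, and HSP60 with HSP10 folds proteins imported into mitochondria. HSF1 is the main transcription factor of the heat shock response and binds heat shock elements in the promoters of many of these genes. The ER has a separate set of chaperones under the control of the unfolded protein response.

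Library totals ranged from 16682871 to 18021718 counts, so 1 count was worth 0.0555 to 0.0599 CPM. RNF26 itself had 2030, 1942 and 1945 CPM in the shcontrol libraries and 68.4, 69.2 and 68.3 CPM in the shRNF26 libraries, in the direction of the labels. It fell from 1972 ± 49.7 to 68.7 ± 0.482 CPM (mean ± SD, n = 3 per group, scaled by trimmed mean of M values). The labelled cell type was only partly borne out by markers. Of 16 renal and clear cell carcinoma markers, 13 were below 1 CPM, EMX2 was at 0 in all 6 libraries, and CA9 averaged 0.138 CPM in the shcontrol libraries, while PAX8 was present at 2.90 ± 0.357 CPM. All 14 markers of squamous epithelium averaged at least 1 CPM over the 6 libraries, with TP63 at 172.5 ± 7.37 CPM in the shcontrol libraries. SPRR2A did so through the shcontrol libraries alone (12.6 ± 0.825 CPM), and had 0.663 ± 0.332 CPM in the shRNF26 libraries. The summed level of the 14 was 5786 to 6044 CPM in the shcontrol libraries and 3286 to 3365 CPM in the shRNF26 libraries. Of the 14, 7 were called lower (50%) and 2 higher (14.3%), against 22.6% and 18.9% of all tested genes. The summed renal markers were 33.7 to 35.3 and 40.5 to 42.9 CPM, of which MME, an endopeptidase of the tubule brush border, made up 26.2 ± 0.530 and 34.6 ± 0.739 CPM and was called higher. PAX8 (2.12 ± 0.269 CPM in shRNF26) and LHX1 (2.57 ± 0.372 and 1.95 ± 0.186 CPM) had lower values and did not pass. The part of these marker changes in the chaperone results was not tested, and in bulk RNA fewer cells of a type and less RNA per cell cannot be told apart.

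Heat shock elements are arrays of the inverted unit NGAAN, and the promoters that hold them are shown here because HSF1 is known to bind such arrays. An array of 3 units, GAA then TTC then GAA with any 2 bases between units, and its reverse complement, TTC then GAA then TTC, were searched in RefSeq promoter windows (GRCh38.p14, 250 bases before to 50 after a gene's start). Windows were found for 45 of the 50 genes, 63 windows in all, and not for HSF1, HSPA14, BAG4, FKBP4 and CRYAB. Of these, 7 windows from 7 genes held the 3-unit array (11.1%), against 172 of 35116 windows of all genes (0.49%). The 7 genes were CHORDC1, DNAJB6, HSP90AA1, HSP90AB1, HSPA8, HSPD1 and DNAJA1. In the stretches below, written 5′ to 3′ on the gene's strand, capitals mark the array, and overlapping arrays run together. HSPA8 held a further array at positions -230 to -218 from its start, which is not shown. Also not shown are the overlapping arrays of HSPD1, at -245 to -233 and -240 to -228. DNAJA1 held its array after its start, at positions 4 to 16, and that stretch is not shown either.
CHORDC1, chr11:90223067-90223129, minus strand: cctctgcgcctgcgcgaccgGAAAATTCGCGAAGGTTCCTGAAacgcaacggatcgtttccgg
DNAJB6, chr7:157336853-157336905, plus strand: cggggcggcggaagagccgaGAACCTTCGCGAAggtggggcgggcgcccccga
HSP90AA1, chr14:102087100-102087152, minus strand: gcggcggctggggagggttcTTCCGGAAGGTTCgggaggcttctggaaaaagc
HSP90AB1, chr6:44247758-44247863, plus strand: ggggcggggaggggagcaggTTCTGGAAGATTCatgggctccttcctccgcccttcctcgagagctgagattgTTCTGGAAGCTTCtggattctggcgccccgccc
HSPA8, chr11:123062159-123062211, minus strand: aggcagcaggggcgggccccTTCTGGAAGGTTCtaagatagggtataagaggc
No window of DNAJB1 held the exact 3-unit array. The window shown held the shorter pair, GAA then TTC with any 2 bases between them, at 2 places before the start, marked in capitals. Another window, with a different start, held the pair at 1 place just after that start, which is not shown. That pair or its counterpart TTC then GAA, which is also part of every 3-unit array and was searched after the values were seen, was in 34.9% of the 63 windows and in 13.5% of all windows.
DNAJB1, chr19:14518417-14518494, minus strand: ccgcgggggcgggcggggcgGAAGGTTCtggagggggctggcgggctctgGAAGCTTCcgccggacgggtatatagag
A match describes letters in a window and is not evidence that a factor was bound in these cells.

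Of the 44 tested chaperone genes, 20 fell, 3 rose and 21 did not pass in the shRNF26 libraries (edgeR quasi-likelihood test, Benjamini-Hochberg adjusted p below 0.05 over all 14766 tested genes). Across all tested genes 41.4% were called, 22.6% lower and 18.9% higher, so the share of chaperone genes called lower, 45.5%, was above the background and the share called higher, 6.82%, was below it. The changes were small. The median log2 fold change was -0.10 against 0.01 for all tested genes, and 3 genes, HSPA13, DNAJB1 and BAG3, passed with a change of at least 0.5 on the log2 scale. The shRNF26 libraries lay wholly below the shcontrol libraries for 23 of the 44 genes and wholly above them for 4, against 25.9% and 24.2% of all tested genes. With libraries scaled by total counts alone, 12 of the 44 were lower and 6 higher, against 15.4% lower and 30.1% higher of all genes, and the chaperone median was -0.01 against 0.10 for all genes. The gap between the chaperone median and that of all genes was -0.11 under both scalings. A change of scaling shifts all genes by about the same amount, so this equality is not a separate check.

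**Figure D1:**
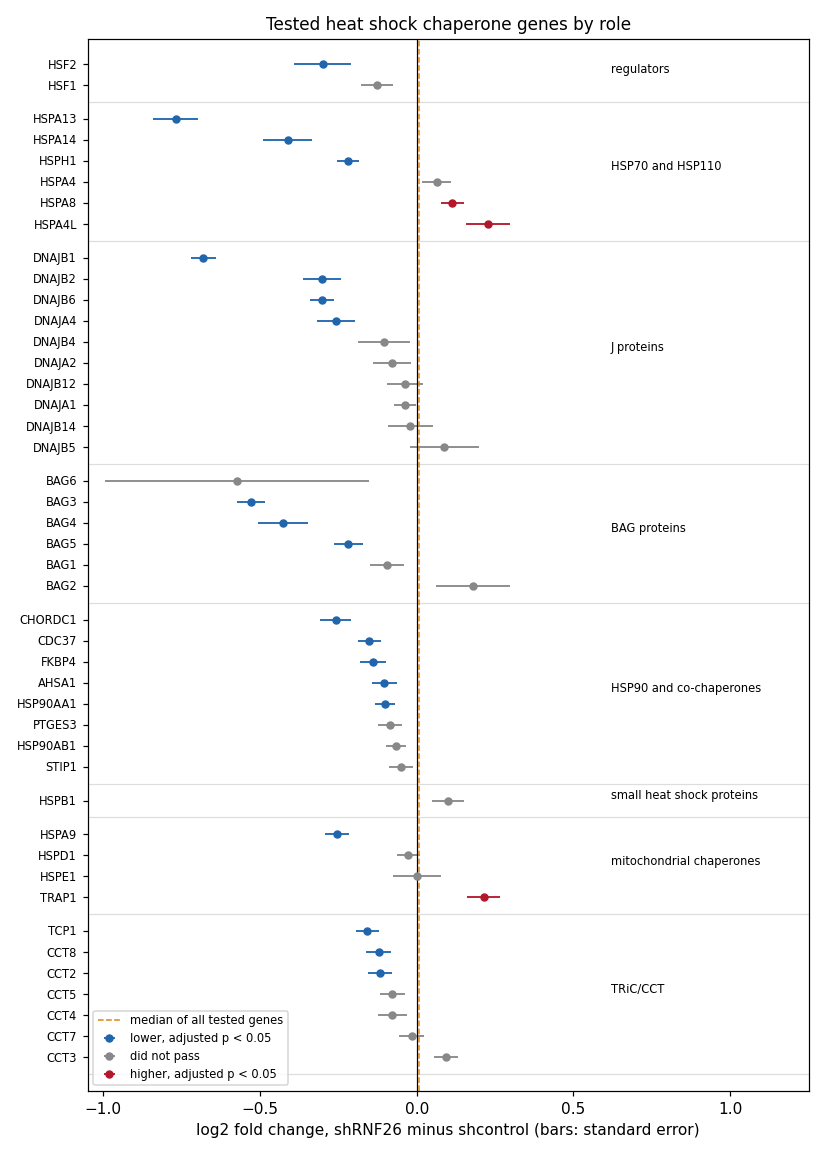
Log2 fold change (x axis, shRNF26 minus shcontrol, bars show the standard error) of the 44 tested chaperone genes, grouped by role, with colour showing the edgeR call at an adjusted p of 0.05. HSPA13, DNAJB1 and BAG3 lie farthest to the left among called genes, and the 3 called higher are HSPA8, HSPA4L and TRAP1.

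Of the 50 genes, 4 lay in stretches where most genes had next to no counts: HSPA1A, HSPA1B and DNAJA3, which were below the filter, and BAG6, which passed it and was tested. HSPA1A and HSPA1B, the neighbouring genes of the main stress-inducible HSP70, had 0, 1 and 0 and 0, 0 and 0 counts in the shcontrol libraries, and 0, 0 and 1 and 3, 0 and 2 counts in the shRNF26 libraries. Summed they gave at most 3 counts in a library, which is the limit that a count of 0 allows (0.166 to 0.180 CPM). Their protein-coding neighbours were at the same level: of the 20 nearest genes, 10 on each side in GENCODE 29, 19 were below 1 CPM. Those neighbours include genes of every cell, such as EHMT2, LSM2 and NEU1, each with at most 3 counts in any library. From GABBR1 to KIFC1, across the major histocompatibility complex on chromosome 6, 147 of 157 protein-coding genes were below 1 CPM (93.6%), against 37.7% in the whole table. TUBB, a main beta tubulin, had 3 to 9 counts a library there. BAG6, which hands mislocalised proteins to degradation or to ER insertion, lies in the same stretch, and its counts of 48, 11 and 16 against 13, 19 and 21 are uncertain for that reason.

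DNAJA3, the mitochondrial J protein, had 0, 0 and 1 counts in the shcontrol libraries and 1, 0 and 1 in the shRNF26 libraries. It lay in a run of 9 consecutive protein-coding genes from PAM16 to C16orf96. The run was traced outward from DNAJA3 until a gene had at least 100 counts over the 6 libraries. Within it no gene had more than 22 counts, and HMOX2 had 5. How often such runs occur elsewhere was not examined. Directly beside the run lay UBALD1 with 3240 counts and, on the other side, GLIS2 with 174. Beyond GLIS2 came TFAP4 with 4605 counts and then SRL with 17. Over its 20 nearest genes DNAJA3 did not stand apart, with 10 below 1 CPM, against 2 to 13 for the other 46 chaperone genes (over 20 neighbours each, except 15 for DNAJB6). Levels of HSPA1A, HSPA1B, BAG6 and DNAJA3 in the table are therefore not evidence that these genes were silent. The sources used here do not say how reads matching several places were counted, and the cause of these low counts was not tested.

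**Figure D2:**
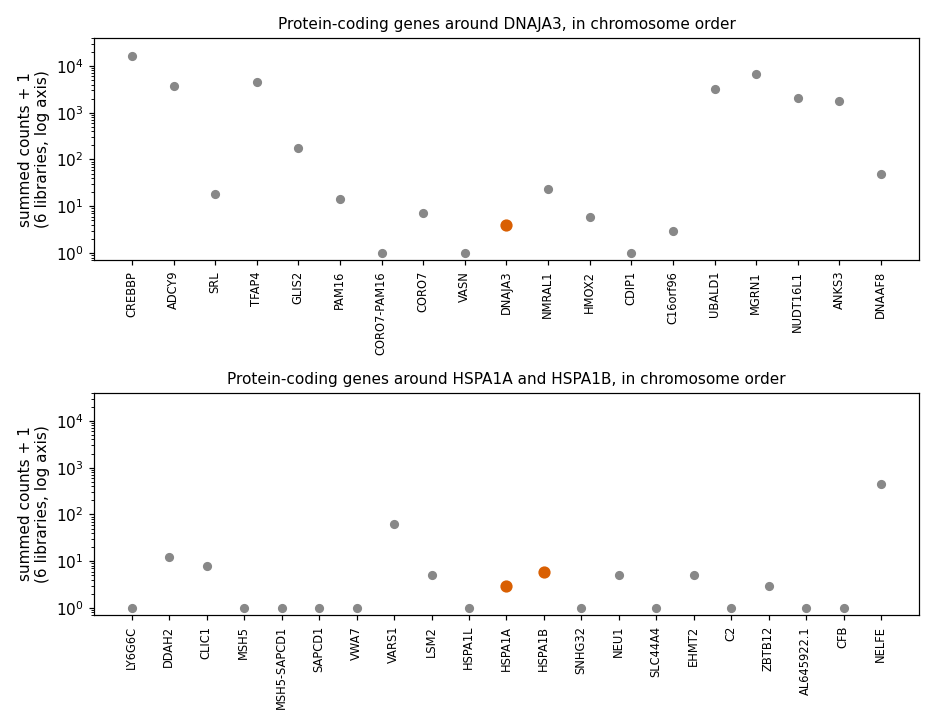
Counts summed over the 6 libraries plus 1 (y axis, log scale) of protein-coding genes in chromosome order around DNAJA3 (upper panel) and around HSPA1A and HSPA1B (lower panel), with those genes in orange. DNAJA3 sits in a run of 9 genes with at most 22 counts, and 19 of the 20 genes nearest to HSPA1A are below 1 CPM.

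HSF1 and HSF2 are the transcription factors of the set. HSF1 had 179.6, 169.5 and 157.3 CPM in the shcontrol libraries and 147.0, 163.4 and 153.6 CPM in the shRNF26 libraries. These ranges overlapped, and the log2 fold change of -0.13 (SE 0.052) did not pass (edgeR adjusted p = 0.059). It passed without shcontrol replicate 3 (-0.18) or shRNF26 replicate 2 (-0.17), with the replicate number as a block (-0.13, adjusted p = 0.031), in a robust fit and with no filter on low counts (adjusted p = 0.042 in both). HSF2, which can form mixed trimers with HSF1, had 24.5, 31.9 and 31.3 CPM against 23.4, 24.4 and 23.3 CPM. All shRNF26 libraries were below the lowest shcontrol library, and HSF2 fell by 0.30 on the log2 scale (SE 0.091, edgeR adjusted p = 0.013). That call was lost without shcontrol replicate 2 (-0.23) or shcontrol replicate 3 (-0.25), and with total-count scaling (-0.21). HSF1 overlaps DGAT1 on the opposite strand, and the sources used here do not give the strand setting of the counting, which bears on each opposite-strand overlap named here.

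Among 9 genes of the HSP70 and HSP110 families, 6 were tested. Of these 3 fell, 2 rose and 1 did not pass (50% lower and 33.3% higher, against 22.6% and 18.9% of all tested genes). HSPA13, an HSP70-like protein found in microsomes rather than the cytosol, with an ATPase domain but no peptide-binding domain, showed the largest called change of the 50 genes. It had 49.3, 59.3 and 57.7 CPM in the shcontrol libraries and 33.3, 31.1 and 33.2 CPM in the shRNF26 libraries, with no overlap. The log2 fold change of -0.77 (SE 0.071, adjusted p = 6.05e-08 by edgeR) left 58.7% of the control level. HSPA14, an HSP70 found with the ribosome, had 31.7, 36.8 and 36.7 against 25.7, 24.99 and 28.3 CPM (log2 fold change -0.41, SE 0.079, adjusted p = 0.00035). HSPA14 shares its locus and strand with MSANTD7, so part of its reads may be assigned to either.

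HSPH1, the abundant HSP110 that releases nucleotide from HSP70, fell modestly and evenly. Its 3 shcontrol values were 871, 905 and 886 CPM and its 3 shRNF26 values 765, 750 and 772 CPM (edgeR: -0.22 on the log2 scale, SE 0.034, adjusted p = 3.43e-05). The 2 genes that rose in these families were the constitutive chaperone HSPA8 and the HSP110 relative HSPA4L. HSPA8 had 1374, 1472 and 1474 CPM in the shcontrol libraries and 1544, 1527 and 1603 CPM in the shRNF26 libraries. The lowest shRNF26 library was above the highest shcontrol library, at a log2 fold change of 0.11 (SE 0.035, adjusted p = 0.014). HSPA4L had 48.0, 53.5 and 54.5 against 59.9, 55.7 and 67.0 CPM (log2 fold change 0.23, SE 0.069, adjusted p = 0.013). Both calls were lost without shcontrol replicate 1 (0.08 for HSPA8, 0.17 for HSPA4L) or shRNF26 replicate 3 (0.09 and 0.15). HSPA4, the third HSP110, did not pass at 0.06 (SE 0.046), but was called higher with total-count scaling (0.15). HSPA2, the testis-rich HSP70, was below the filter with 24, 21 and 8 counts against 6, 12 and 4.

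The J-domain proteins of the cytosol, which load clients onto HSP70, were lower or did not pass, and none of the 10 was called higher. The share called lower was 40%, against 22.6% of all tested genes, of which 18.9% were called higher. DNAJB1, the main stress-inducible partner of HSP70 and the promoter shown above with short elements, fell most. It had 303.9, 301.0 and 290.3 CPM in the shcontrol libraries and 187.1, 190.5 and 180.9 CPM in the shRNF26 libraries. The groups were far apart relative to their spread, with 62.4% of the control level left (edgeR: -0.68 on the log2 scale, SE 0.040, adjusted p = 8.43e-11). DNAJB1 overlaps TECR on the opposite strand. DNAJB6, a suppressor of polyglutamine aggregation, had 272.6, 271.1 and 280.9 against 219.8, 228.2 and 220.7 CPM, again with no overlap (log2 fold change -0.30, SE 0.039). Its processed copy DNAJB6P1, at 4.62% of the counts of DNAJB6, also fell (-0.56, edgeR adjusted p = 0.0074), and reads shared between them cannot be separated here.

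DNAJB2, a J protein with ubiquitin-interacting motifs, had 90.7, 83.7 and 77.1 CPM in the shcontrol libraries and 68.9, 70.5 and 64.4 CPM in the shRNF26 libraries (log2 fold change -0.30, SE 0.060). DNAJA4 had 67.8, 72.6 and 62.7 against 59.0, 55.7 and 55.3 CPM (-0.26, SE 0.060). In both genes every shRNF26 library was below every shcontrol library. DNAJA4 overlaps SKIC8 on the opposite strand. The other 6 J proteins did not pass, with log2 fold changes from -0.10 for DNAJB4 to 0.09 for DNAJB5. They included DNAJA1 (-0.04) and DNAJA2 (-0.08), the general HSP70 partners of the cytosol. DNAJB12 (-0.04) and DNAJB14 (-0.02), which sit in the ER membrane with the J domain facing the cytosol, did not pass either.

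BAG proteins, which bind HSP70 through a shared domain and promote client release, had 3 of 6 members lower and none higher. This was 50% lower, against 22.6% lower and 18.9% higher among all tested genes. BAG3, which is induced by stress and steers aggregated clients to autophagy together with HSPB8, had 160.1, 150.5 and 152.4 CPM in the shcontrol libraries. The shRNF26 libraries had 106.4, 109.9 and 104.6 CPM, all well below that range (edgeR: -0.53 on the log2 scale, SE 0.045, adjusted p = 1.67e-08). BAG4, which binds death receptors, had 30.4, 32.7 and 33.3 against 21.9, 23.6 and 26.2 CPM (-0.43, SE 0.079). BAG5 had 126.0, 126.6 and 134.0 against 112.1, 107.8 and 112.5 CPM (-0.22, SE 0.045). BAG4 overlaps LSM1, BAG5 overlaps KLC1 and BAG2 overlaps RAB23 on the opposite strand. BAG1 (-0.09) and BAG2 (0.18, SE 0.117) did not pass, although BAG2 did without shcontrol replicate 3 (0.33). BAG6 had -0.57 with an SE of 0.421 and did not pass. Its shcontrol values of 2.76, 0.670 and 0.975 CPM rested largely on replicate 1.

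**Figure D3:**
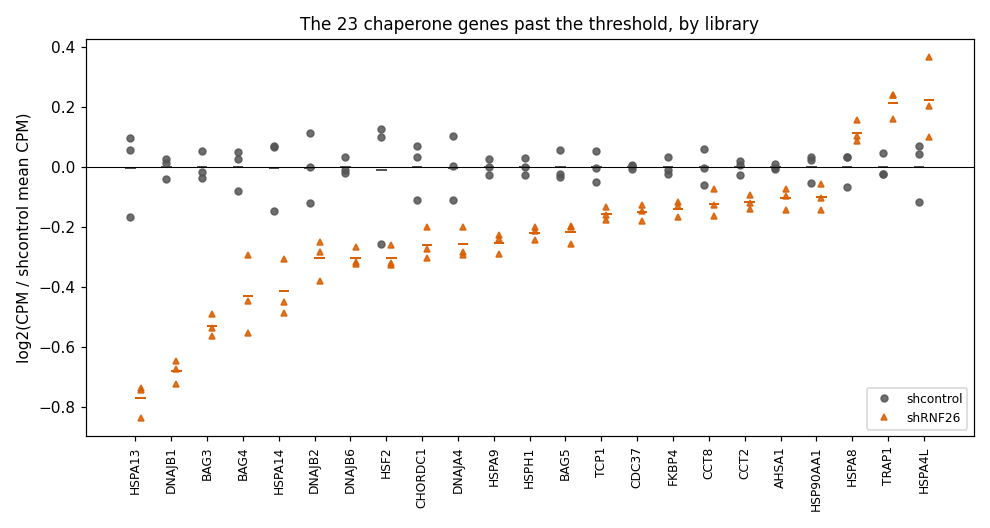
Level in each library relative to the shcontrol mean (y axis, log2 ratio of CPM) for the 23 chaperone genes past the threshold, ordered by fold change; circles are the 3 shcontrol libraries, triangles the 3 shRNF26 libraries and short bars group means. HSPA13, DNAJB1 and BAG3 are set far apart, while AHSA1, HSP90AA1 and HSPA8 show small differences (-0.10, -0.10 and 0.11).

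Of HSP90 and its co-chaperones 5 of 8 were called lower and none higher, with log2 fold changes between -0.26 and -0.05. The share called lower was 62.5%, against 22.6% of all tested genes, of which 18.9% were called higher. With total-count scaling CHORDC1 alone of these 8 was called lower, and HSP90AB1, STIP1 and PTGES3 turned positive. CHORDC1, a zinc-binding HSP90 partner whose promoter array is shown above, changed most. It had 176.6, 199.9 and 195.0 CPM in the shcontrol libraries and 157.5, 154.4 and 165.8 CPM in the shRNF26 libraries, without overlap (edgeR: -0.26 on the log2 scale, SE 0.049, adjusted p = 0.00033). CDC37, which brings protein kinases to HSP90, had 281.1, 283.9 and 283.3 against 258.7, 249.8 and 255.6 CPM (-0.15, SE 0.038). FKBP4, an immunophilin of steroid receptor complexes, had 196.9, 189.6 and 191.4 against 175.8, 177.4 and 171.5 CPM (-0.14, SE 0.040). Neither of these calls held with total-count scaling (-0.06 and -0.05).

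The HSP90 proteins themselves differed little. The inducible HSP90AA1 had 3381, 3586 and 3562 CPM in the shcontrol libraries and 3268, 3179 and 3372 CPM in the shRNF26 libraries. The difference was called (log2 fold change -0.10, SE 0.032, adjusted p = 0.017), but not without shcontrol replicate 2 (-0.09), shRNF26 replicate 1 (-0.10) or shRNF26 replicate 2 (-0.08), nor with total-count scaling (-0.01). AHSA1, which stimulates the ATPase of HSP90, was called at -0.10 (SE 0.040, adjusted p = 0.043). It had 208.3, 210.4 and 207.9 against 198.5, 195.2 and 189.1 CPM, and its call was lost in 8 of 14 alternatives. Leaving out shcontrol replicate 2 (-0.10), shRNF26 replicate 1 (-0.12), shRNF26 replicate 2 (-0.11) or shRNF26 replicate 3 (-0.08) each ended it. The constitutive HSP90AB1 (-0.07, SE 0.031), STIP1, which links HSP70 to HSP90 (-0.05), and the co-chaperone p23, encoded by PTGES3 (-0.09), did not pass. HSP90AB1 passed without shcontrol replicate 3 (-0.09), and PTGES3 without shcontrol replicate 1 (-0.12). HSP90AA1 overlaps WDR20, AHSA1 overlaps VIPAS39 and CDC37 overlaps PDE4A on the opposite strand.

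Of 3 small heat shock proteins, which hold unfolded proteins without ATP, only HSPB1 was measured above the filter. HSPB1 had 251.1, 227.5 and 218.4 CPM in the shcontrol libraries and 244.0, 262.4 and 240.3 CPM in the shRNF26 libraries, with overlap. Its log2 fold change of 0.10 (SE 0.050) did not pass (edgeR adjusted p = 0.12), but did without shcontrol replicate 1 (0.16) and with total-count scaling (0.19). HSPB8, the partner of BAG3, had 20, 7 and 11 counts against 12, 17 and 8. CRYAB, a lens and muscle chaperone, had 3, 3 and 6 counts against 1, 2 and 2. Both were below the filter and were not tested.

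The mitochondrial chaperones went in different directions. HSPA9, the mitochondrial HSP70 that pulls proteins through the import channel, had 328.5, 333.9 and 340.8 CPM in the shcontrol libraries and 282.8, 273.3 and 285.5 CPM in the shRNF26 libraries. It fell by 0.25 on the log2 scale (SE 0.038, edgeR adjusted p = 2.83e-05), with no overlap. TRAP1, the mitochondrial HSP90, rose from 62.3, 65.5 and 62.3 to 74.8, 74.8 and 70.8 CPM (log2 fold change 0.21, SE 0.052, adjusted p = 0.0029), and overlaps DNASE1 on the opposite strand. HSPD1 and HSPE1 encode HSP60 and HSP10 from a shared promoter region. HSPD1 had 625.0, 653.5 and 662.7 against 628.6, 623.8 and 653.2 CPM, and HSPE1 had 62.8, 68.4 and 54.3 against 66.4, 63.7 and 55.6 CPM. Neither passed, with log2 fold changes of -0.03 (SE 0.037) and 0.00 (SE 0.076). The pair overlap each other in the annotation, HSPD1 also overlaps MOB4 on the opposite strand, and HSPE1 shares its strand with the read-through gene HSPE1-MOB4, which had 2 counts in all.

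The 7 listed subunits of the TRiC/CCT chaperonin did not move as 1 block. TCP1 had 579.8, 622.6 and 598.1 CPM in the shcontrol libraries and 537.0, 546.6 and 530.6 CPM in the shRNF26 libraries (edgeR: -0.16 on the log2 scale, SE 0.037, adjusted p = 0.0021). CCT8 had 404.8, 420.8 and 440.0 against 386.1, 376.5 and 400.5 CPM (-0.12, SE 0.041), and CCT2 had 295.5, 298.6 and 288.9 against 276.0, 270.6 and 267.1 CPM (-0.12, SE 0.038). In all 3 the groups did not overlap, but total-count scaling ended each call (-0.07, -0.03 and -0.03). CCT2 was also lost without shcontrol replicate 2 (-0.11), shRNF26 replicate 2 (-0.12) or shRNF26 replicate 3 (-0.11). CCT8 was lost without shcontrol replicate 2 (-0.13), shcontrol replicate 3 (-0.09), shRNF26 replicate 1 (-0.12) or shRNF26 replicate 2 (-0.10).

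The remaining subunits CCT4 (-0.08), CCT5 (-0.08) and CCT7 (-0.02) did not pass, the first pair doing so without shcontrol replicate 1 (-0.12 each). CCT3 lay on the other side. Its shcontrol values of 523.2, 510.6 and 541.8 CPM were all below its shRNF26 values of 553.8, 549.6 and 577.6 CPM, at a log2 fold change of 0.09 (SE 0.037) that just missed the threshold (edgeR adjusted p = 0.052). It passed in 7 of 14 alternatives, among them total-count scaling (0.18), the replicate block (0.09) and leaving out shcontrol replicate 3 (0.11). CCT6A, a subunit outside the 50 genes, had 326.0 ± 4.10 and 318.1 ± 5.67 CPM and did not pass (-0.04, SE 0.037). TCP1 overlaps ACAT2, CCT3 overlaps TSACC and CCT4 overlaps COMMD1 on the opposite strand.

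The genes with a heat shock element array in their promoter window did not share a direction. Of the 7, CHORDC1, DNAJB6 and HSP90AA1 fell, HSPA8 rose, and DNAJA1, HSP90AB1 and HSPD1 did not pass, with values given above. The windows of HSPA13, DNAJB1 and BAG3, the largest called falls, did not hold the exact 3-unit letters. The search allowed no mismatch and covered these windows alone, so it cannot show that a gene lacks an element. The part of HSF1 in any of these changes was not tested.

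Beyond the 50 genes, 77 further chaperone and co-chaperone genes of the cytosol and mitochondria, listed by role and not by how they moved, gave 61 tested genes. Of these 15 fell, 7 rose and 39 did not pass (24.6% lower and 11.5% higher, against 22.6% and 18.9% of all tested genes), with a median of -0.05. The share called lower was thus near that of all genes. Among exchange factors and other HSP70 genes, 3 of 6 were called lower and none higher. The inducible HSPA6 fell from 20.6 ± 1.54 to 15.5 ± 1.14 CPM (log2 fold change -0.41). GRPEL2 and GRPEL1, exchange factors for HSPA9, had -0.37 and -0.31. Other J proteins were mixed, with 5 of 21 higher and 4 lower. DNAJC27 had -0.79 from 8.46 ± 0.550 CPM, and DNAJC4 had 0.52 from 12.6 ± 0.765 CPM.

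Of 14 other HSP90 co-chaperones 1 was higher and 2 lower (7.14% and 14.3%, against 18.9% and 22.6% of all tested genes). AHSA2P, the transcribed relative of AHSA1, rose from 35.2 ± 1.78 to 49.2 ± 0.377 CPM (0.48), and CDC37L1, the relative of CDC37, had -0.30. TSC1, the protein of the series title and a co-chaperone of HSP90, did not pass (-0.02, SE 0.051). Prefoldin, which hands actin and tubulin to TRiC, had PFDN2 (-0.46) and PFDN4 (-0.32) called lower, and with PDCL these were 3 of 8 in that list, none higher. Of 8 mitochondrial proteases and disaggregases 3 were lower and 1 higher, with YME1L1 at -0.26 and SPG7 at 0.25. In a list of other small heat shock proteins, other HSF genes and genes for their binding proteins, 4 were tested and none passed. HSF4 was among these 4 (0.22, SE 0.165).

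The ER counterpart of these genes, a list of 18 ER chaperones and folding enzymes, showed larger falls. Of 18 tested 17 fell (94.4%), none rose and SIL1 did not pass (-0.12), against 22.6% lower and 18.9% higher of all tested genes. The median was -0.43, with a range from -2.11 for DNAJB9 to -0.12. The ER forms of HSP70 and HSP90, HSPA5 and HSP90B1, had -1.25 (SE 0.031) and -0.68 (SE 0.036). Their cytosolic counterparts HSPA8 and HSP90AA1 had 0.11 and -0.10, and their mitochondrial counterparts HSPA9 and TRAP1 -0.25 and 0.21. The difference between the compartments was not tested as such.

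**Figure D4:**
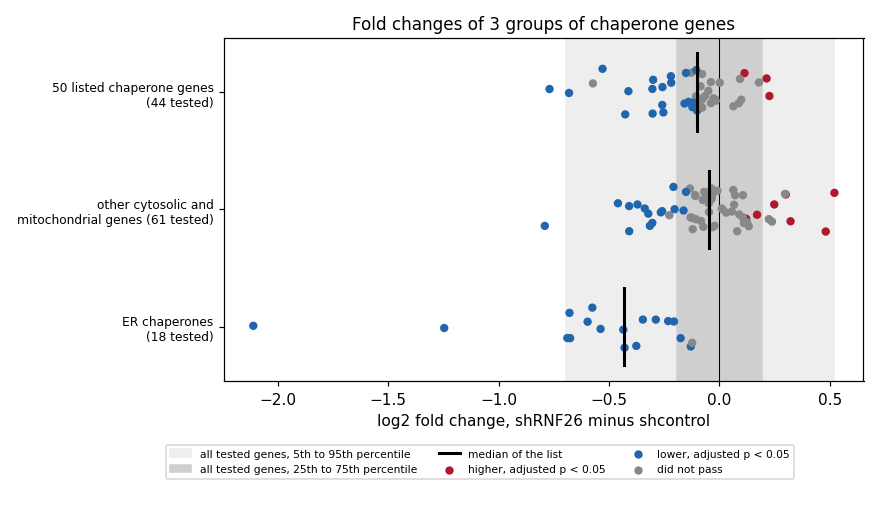
Log2 fold change (x axis, shRNF26 minus shcontrol) of each tested gene in 3 lists, with black bars for list medians, colours for the edgeR call and grey bands for the middle of all 14766 tested genes; vertical jitter within a list has no meaning. The 44 tested chaperone genes and the 61 further genes lie mostly within the bands (medians -0.10 and -0.05), and the 18 ER chaperones lie lower (median -0.43).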

How the data were processed

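The authors deposited 1 table of raw counts per Ensembl gene for the 6 libraries. Its values are whole numbers with totals that differ, although it is named for FPKM, so a count test was used. The build hg19 comes from the submitters' processing notes; the aligner, counter, annotation and strand setting do not appear in the sources used here. Rows with no gene ID (2, with 0% of all counts) were not used. Symbols were matched for 61369 of 61541 IDs through a table of gene names. Gene order and overlaps came from GENCODE 29 and promoters from RefSeq, both on GRCh38. Gene order and overlaps were joined to the counts by Ensembl gene ID and promoters by symbol, not by position. Gene order on hg19 was not checked.

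Libraries were scaled by trimmed mean of M values (TMM; factors 0.966 to 0.971 in shcontrol and 1.031 to 1.033 in shRNF26). Genes with a mean of at least 1 CPM (14766) were tested in edgeR 4.0.16 (R 4.3.3) by its two-sided quasi-likelihood test, with Benjamini-Hochberg adjustment and a threshold of 0.05. The standard error is the absolute log2 fold change over the root of F. Replicates differed by more than sampling noise (chi-square per degree of freedom 2.31 to 4.98). A count of 0 allows up to 3 counts, which covers counting error only.

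The genes and lists were chosen with earlier results of these data known. By rule, values in every library are given for RNF26, HSF1, HSPA1A, HSPA1B, up to 4 called genes of each role by size of change (the 2 with the smallest p where none was called) and every called gene with a change of at least 0.5. For the further lists up to 2 called genes each were named by size of change. HSPA8, HSP90AA1, HSPD1, HSPE1, CCT3, CCT6A, PDCL, TSC1, GRPEL1, HSF4 and the genes below the filter were given beyond that rule, after their values were seen. BAG6, HSP90B1 and SIL1 were also given outside it. Alternatives were total-count scaling, DESeq2 1.42.0 size factors and test, limma 3.58.1 on log2(CPM + 1), a robust fit, other filters, a replicate block and leaving out each library.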

Additional observations from a re-analysis of the deposited data

How the results depend on the processing

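Of the 23 called chaperone genes, 13 kept their call in all 14 alternatives: HSPA13, HSPA14, HSPH1, DNAJA4, DNAJB1, DNAJB2, DNAJB6, BAG3, BAG4, BAG5, CHORDC1 and HSPA9 lower and TRAP1 higher. The other 10 lost it in at least 1, none of the 23 changed sign, and 9 of the 21 that did not pass did so in at least 1. Total-count scaling gave 6 chaperone genes higher and 12 lower and a median of -0.0117, a shift from -0.10 that is larger than the spread of that median between libraries (0.03). Its median over all genes was 0.10, against 0.01 with TMM, so all values shift by about that gap. It also turned the sign of 11 genes that did not pass: DNAJA1 (0.0527), DNAJA2 (0.0126), DNAJB12 (0.0527), DNAJB14 (0.0699), HSP90AB1 (0.0252), STIP1 (0.0412), PTGES3 (0.0055), HSPD1 (0.0640), CCT4 (0.0130), CCT5 (0.0126) and CCT7 (0.0743).

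Leaving out 1 library at a time gave 1 to 5 chaperone genes higher, 15 to 23 lower and a median of -0.12 to -0.09. Of all tested genes 4975 to 5804 were then called, 14.8% to 17.4% higher and 18.9% to 21.9% lower. The count of chaperone genes higher was 5 without shcontrol replicate 3 and 1 without shRNF26 replicate 3. Among genes that did not pass, these fits gave both signs for DNAJB14 (-0.0830 to 0.0454), HSPE1 (-0.0867 to 0.0776) and CCT7 (-0.0463 to 0.0120). The cause of each was not tested. RNF26 stayed between -4.86 and -4.83 in these fits.

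The replicate block gave 4 chaperone genes higher and 21 lower, adding HSF1 and CCT3, against 19.9% higher and 23.6% lower of all tested genes. Deviations of libraries with the same number correlated at 0.011, -0.027 and 0.093, and those with different numbers at -0.119 to 0.118. No pairing by number was seen in these values, but they cannot exclude one, and the labels do not state it. Summing HSPA1A and HSPA1B gave at most 3 counts a library and no test. Without a filter on low counts HSPA2 was called lower.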

Other observations

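The table lists 121 pseudogenes named after 24 of the chaperone genes, and 110 of them had fewer than 60 counts over the 6 libraries. Of the 8 that passed the filter, HSP90AA2P had the most counts, at 0.634% of those of HSP90AA1, and did not pass the test (log2 fold change -0.16, edgeR adjusted p = 0.14). HSPD1P11 had 18, 21 and 16 counts in the shcontrol libraries and 36, 45 and 53 in the shRNF26 libraries (edgeR: 1.19 on the log2 scale, SE 0.270, adjusted p = 0.0015), while HSPD1 did not pass (-0.03). These genes were looked up after the values were seen.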
